A study of Mus musculus with 3 samples.

Results

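The nuclear genes for the subunits of oxidative phosphorylation were examined in regulatory T cells (Tregs), the CD4 T cells that restrain immune responses. Members were the protein-coding genes of GENCODE M21 whose symbols name a subunit of a respiratory complex: Nduf genes of the a, b, c, s and v series, Sdha to Sdhd, Uqcr genes, Cyc1, Cox4 to Cox8 genes and Atp5 genes. There were 86 such entries with 85 different names, of 22028 protein-coding genes and 55536 genes in all. Complex I had 35, complex II 4, complex III 9, complex IV 20 and complex V 18. Ndufab1, another complex I subunit, was not matched by this pattern of symbols. Ndufa4 and Ndufa4l2, which carry complex I names, were grouped with complex IV, where the NDUFA4 protein resides.

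The cells were primary Tregs labelled as inflammation-experienced, from adult male Foxp3CreERT2 x Rosa26YFP mouse at 6 months of age. That strain places a Cre recombinase under the control of Foxp3 and a YFP reporter at Rosa26. There was 1 group of 1 biological replicate, sequenced as polyadenylated RNA in 3 libraries that the labels give as technical replicates. The sources used here name neither the inflammatory condition nor the number of animals, nor the step at which the technical replicates were divided. Without a comparison group, the data give the levels of the genes and the differences between libraries. Every p-value rests on these technical libraries alone and does not cover the variation between biological replicates.

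Oxidative phosphorylation takes place in the inner mitochondrial membrane. Complexes I and II pass electrons from NADH and succinate to ubiquinone, complex III passes them to cytochrome c, and complex IV passes them to oxygen. Complexes I, III and IV pump protons, and complex V, the ATP synthase, uses the proton gradient to make ATP. Most subunits are encoded in the nucleus and a small core in mitochondrial DNA. Tregs are known for relying on mitochondrial respiration more than other CD4 T cells do.

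Summed over genes, the estimated counts came to 11829501 in library 1, 14136139 in library 2 and 10667765 in library 3. All 7 Treg markers examined (Foxp3, Ikzf2, Il2ra, Ctla4, Tnfrsf18, Cd4 and Cd3e) were detected, Foxp3 itself at 16.1 ± 1.86 TPM (a level per length of transcript, here the mean ± SD of 3 libraries). Their summed level was 2778, 2487 and 2807 TPM. Markers of other blood cells were uneven, and the sum of each list was lowest in library 1. The summed B cell markers stood at 20.5, 44.5 and 56.6 TPM, the plasma cell markers at 85.2, 363 and 458, the erythroid markers at 4.83, 51.2 and 286, the macrophage and monocyte markers at 8.89, 52.4 and 22.3, the CD8 T cell markers at 5.88, 12.4 and 15.2 and the NK cell markers at 2.53, 12.4 and 5.82. Single markers did not all follow these sums. Most of the NK cell sum was Tyrobp, at 1.5, 11.9 and 3.98 TPM. Ncr1 was highest in library 1, at 0.47, 0.26 and 0.17, and Klrb1c lowest in library 2, at 0.56, 0.26 and 1.67. Among the plasma cell markers Xbp1 was lowest in library 3, at 38.9, 35.8 and 30.3. No marker on these lists was at 0 in all 3 libraries. Muscle and stromal markers summed to 41.9, 36.5 and 39.1 TPM, of which Pecam1, which T cells also express, gave 38.1 ± 2.88. Acta2, Col1a1 and Ckm were under 1 TPM in every library.

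The sequences that matter most for reading the levels are those that a member shares with another locus. The ATP synthase c ring is encoded by 3 nuclear genes whose mature proteins are alike. Below are the last 90 coding bases of the leading coding transcript of each, 5′ to 3′, followed by the same stretch of the transcribed processed pseudogene Gm10175. Capitals mark bases that differ from Atp5g2.
Atp5g2: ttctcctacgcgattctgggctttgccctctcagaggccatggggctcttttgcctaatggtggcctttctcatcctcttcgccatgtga
Atp5g1: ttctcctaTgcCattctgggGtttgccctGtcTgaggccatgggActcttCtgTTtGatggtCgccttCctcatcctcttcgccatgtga
Atp5g3: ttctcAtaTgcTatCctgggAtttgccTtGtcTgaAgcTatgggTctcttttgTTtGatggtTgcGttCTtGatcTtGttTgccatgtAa
Gm10175: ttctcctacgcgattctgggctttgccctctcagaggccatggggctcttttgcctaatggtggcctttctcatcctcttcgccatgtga
In this stretch Atp5g1 differed from Atp5g2 at 12 of 90 bases and Atp5g3 at 23, while Gm10175 differed at 0. Over the whole coding sequence of Atp5g2, 441 of 441 bases were identical in Gm10175. The sequences are those of GENCODE M21 transcripts, on which the deposited quantification rests. Atp5g2 lies at chr15:102662864-102672352 on the minus strand of mm10 and Gm10175 at chr7:23946646-23947290 on the minus strand.

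The same holds for Ndufb4, an accessory subunit of complex I, and its processed pseudogene Ndufb4c. All 390 coding bases of Ndufb4 were identical in Ndufb4c. A read from the coding part of either gene cannot be placed by its sequence, and only reads that reach outside it can.

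Nearly the whole set was expressed. Of the 86 entries, 79 were detected, meaning 1 TPM or more in all 3 libraries, or 91.9%, where 46% of protein-coding genes were. At a mean of 100 TPM or more stood 66 members, or 76.7%, where 6.14% of protein-coding genes did. The median member level was 218, 217 and 215 TPM in libraries 1, 2 and 3, and the median detected protein-coding gene stood at 19.4, 19.2 and 19.8. The members' transcripts were short, with a median effective length of 601 bases against 2116 for detected protein-coding genes. A given count makes a higher level per length on a shorter transcript. The part of length in the members' levels was not tested. As a share of all gene counts, the members took 1.14% in library 1 (95% Wilson interval 1.13 to 1.14), 1.14% in library 2 (1.13 to 1.15) and 1.1% in library 3 (1.09 to 1.11).

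The complexes differed in their typical level. The median member stood at 184 ± 4.69 TPM in complex I (SD, n = 3 libraries), 195 ± 11.7 in complex II, 262 ± 11.3 in complex III, 307 ± 2.92 in complex IV and 359 ± 16.2 in complex V. Complexes I and II overlapped in their library medians, which ran from 178 to 187 TPM and from 186 to 208. With detected members only, complexes IV and V stood at 361 ± 28.6 and 369 ± 23.9 TPM, within each other's spread. The order depends on the members included, on length and on the transcripts counted. In CPM, counts scaled to library size without length, the medians of complexes III and IV were 126 and 108. On coding transcripts alone the complex IV median was 107 TPM in place of 307. These complex IV medians cover all its entries, including the genes near the floor described below, and values for detected members only are not given. Among members averaging at least 10 counts, the median of the mean count was 1523 in complex III and 2025 in complex IV. No test was made between complexes, because genes are not replicates.

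Complex I takes electrons from NADH through a chain of flavin and iron-sulfur centres in its nuclear-encoded core, and is clothed by accessory subunits. All 35 members were detected. The most abundant were accessory: Ndufa3 at 608, 616 and 590 TPM in libraries 1, 2 and 3, Ndufa6 at 311, 312 and 343, Ndufb7 at 316, 310 and 293, Ndufa1 at 298, 282 and 295 and Ndufa7 at 283, 290 and 288. Ndufa3 stood well above the rest in every library, and the libraries of the next 4 overlapped in part. The least abundant were Ndufb3 at 66.8, 75 and 70.3 TPM and Ndufb4 at 37.3, 43.3 and 39.1. The other 28 had means from 70.7 TPM (Ndufb2) to 276 TPM (Ndufb8).

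Among the genes of the catalytic core of complex I, Ndufs8 and Ndufv2 stood at 207 ± 9.96 and 204 ± 2.91 TPM and Ndufs7 at 150 ± 5.07. Ndufs1, the largest core subunit, was at 92.7 ± 11.2, Ndufs3 at 87.3 ± 3.42 and Ndufv1, which binds the flavin, at 78.9 ± 4.74. In the order of levels within complex I, 29 of 34 pairs of neighbours overlapped between libraries.

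Complex II, succinate dehydrogenase, belongs to both the TCA cycle and the electron chain. Its iron-sulfur subunit Sdhb stood at 311, 303 and 277 TPM and its flavoprotein Sdha at 242, 210 and 226. The membrane anchors were lower, Sdhd at 175, 163 and 155 and Sdhc at 108, 99.1 and 92.2. None of the 3 pairs of neighbours overlapped, so this order was the same in all 3 libraries.

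In complex III the small subunits were the most abundant. Uqcrh, the hinge protein, stood at 668, 639 and 676 TPM, Uqcrb at 499, 463 and 426, Uqcr10 at 413, 421 and 412, Uqcrq at 376, 355 and 357 and Uqcr11 at 271, 267 and 250. The core proteins Uqcrc2 and Uqcrc1 were at 188 ± 15 and 160 ± 7.09 TPM. The electron-carrying subunits were the lowest: Uqcrfs1, the Rieske protein, at 125, 122 and 110 TPM and Cyc1, cytochrome c1, at 87.9, 96.9 and 89.2. None of the 8 pairs of neighbours overlapped between libraries, and the highest mean was 7.24-fold above the lowest.

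Complex IV split into 12 abundant genes and 8 near the floor. Cox4i1, a subunit that contacts the mitochondrially encoded core, was the highest of all members at 909, 893 and 882 TPM. It was followed by Cox6b1 at 557, 620 and 646, Cox6c at 595, 584 and 579, Ndufa4 at 529, 509 and 511 and Cox6a1 at 522, 512 and 442. The lowest of the 12 was Cox7a2l, a factor of respiratory supercomplexes, at 282, 281 and 312 TPM, and the remaining 6 had means from 301 TPM (Cox7b) to 423 TPM (Cox7c). The other 8 genes had mean levels of 2.69 TPM or less.

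Those 8 are genes known from other tissues, and each has a ubiquitous partner that was abundant here. Cox6a2, Cox7a1 and Cox8b are heart and skeletal muscle forms, Cox4i2 is known from lung, Cox6b2, Cox7b2 and Cox8c from testis, and Ndufa4l2 from cells short of oxygen. Cox8b and Ndufa4l2 had 0 counts in all libraries. Cox4i2 had 1, 0 and 0 counts in libraries 1, 2 and 3, Cox8c 2, 0 and 0, Cox7b2 3, 0 and 2, and Cox6a2 2, 8 and 0. Cox6b2 had 9, 5 and 3 counts, or 2.1, 1.1 and 1.03 TPM, and Cox7a1 14, 10 and 4, or 4.01, 2.66 and 1.4 TPM. Both were highest in library 1, on few counts, and the source of these counts was not tested. The muscle gene Ckm was at 0.2, 0.2 and 0.13 TPM. None of the 8 reached the mean count of 10 needed for the test between libraries.

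The ratios were large in every pair. Summed over the 3 libraries and corrected for length, Cox8a was at least 987-fold higher than Cox8b and Ndufa4 at least 3503-fold higher than Ndufa4l2, taking 3 counts over the group as the limit that a count of 0 allows. Cox7a2 was 111-fold above Cox7a1 (95% exact interval 76.9 to 168), Cox6b1 417-fold above Cox6b2 (260.3 to 716) and Cox6a1 883-fold above Cox6a2 (480 to 1842). Cox7b was 839-fold above Cox7b2 (359 to 2585), and Cox8a 1947-fold above Cox8c (539 to 16080). The 1 count of Cox4i2 put Cox4i1 17220-fold above it, with an interval from 3090 to 680190. These intervals cover counting error only. As the mean difference of log2(TPM + 0.1) within a library, a scale that understates changes of low genes, the same pairs ran from 6.90 ± 0.66 (Cox7a2 minus Cox7a1) to 12.67 ± 0.78 (Cox4i1 minus Cox4i2). Each of these 8 pairs had the same sign in 3 of 3 libraries, and the exact permutation p (two-sided, by sign flips) was 0.25, the smallest that 3 libraries allow.

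Cox7a2 and Cox7a2l were at the same level within the spread. Cox7a2 stood at 318, 312 and 290 TPM and Cox7a2l at 282, 281 and 312. The difference was 0.07 ± 0.16 on the log2 scale and changed sign in library 3 (exact permutation p = 0.5). It depends on the unit: -1.02 in CPM without length, and -2.01 on coding transcripts alone.

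**Figure D1:**
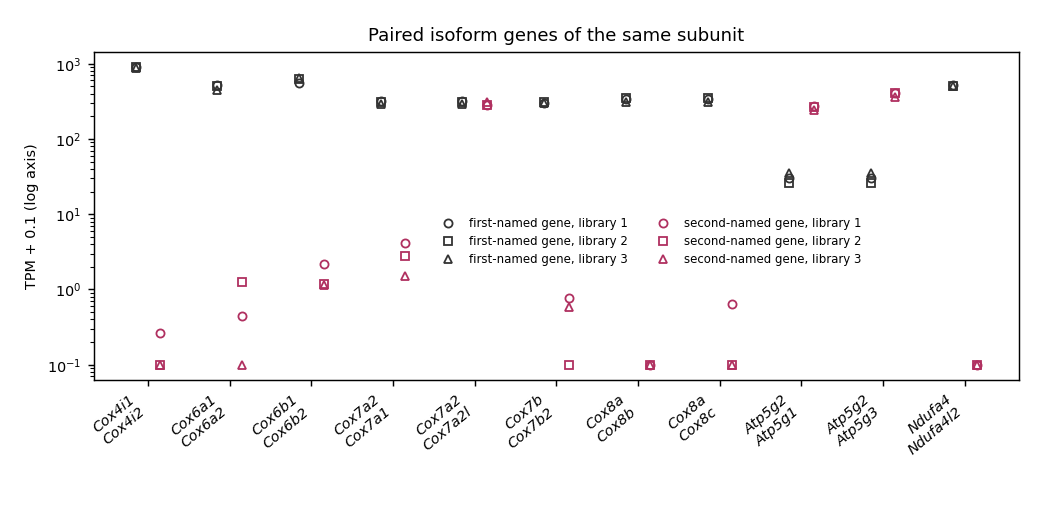
TPM + 0.1 on a log axis for the genes of 11 pairs, first-named gene in black and second-named gene in red, 1 symbol for each library. In 8 pairs the gene in red lies under 5 TPM in every library; Cox7a2 and Cox7a2l overlap, and Atp5g2 lies below Atp5g1 and Atp5g3.

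The promoters of Cox8a and Cox8b show how unlike such partners can be outside the coding sequence. The last 150 bases before the RefSeq start sites (GRCm38.p6) are printed 5′ to 3′ with each CG in capitals: Cox8a at chr19:7217617-7217766 and Cox8b at chr7:140900447-140900596, both on the minus strand.
Cox8a: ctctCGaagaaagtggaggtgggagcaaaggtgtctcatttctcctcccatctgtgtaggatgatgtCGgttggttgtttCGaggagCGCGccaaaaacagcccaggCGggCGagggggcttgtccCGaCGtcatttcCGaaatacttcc
Cox8b: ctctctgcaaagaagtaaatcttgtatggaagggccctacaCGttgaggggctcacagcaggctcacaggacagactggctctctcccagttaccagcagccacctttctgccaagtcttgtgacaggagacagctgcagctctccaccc
Cox8a had 10 CG in these bases and Cox8b 1. Over 250 bases the counts were 11 and 1, and for Cox7a2 and Cox7a1 they were 14 and 4. For Cox7b and Cox7b2 they were 5 and 9, so the order did not hold in every pair.

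Promoter windows of 300 bases, from 250 before to 50 after the start site, were found for 66 of the 85 member names. They were searched on both strands for letters bound by known regulators of respiratory genes. Of 69 windows of detected members, 8 held GCGCATGCG, the core of sites for NRF1, or 11.6%. That compares with 4.03% of windows of detected protein-coding genes and 1.75% of all windows. The 8 genes were Atp5g2, Atp5k, Atp5l, Cox6a1, Ndufa11, Ndufa8, Uqcr11 and Uqcrc1. AAGATGGCG, a sequence bound by YY1, was in 7 windows, or 10.1%, against 3.44% and 1.40%. CCGGAAG, bound by ETS factors such as GABP, was in 23.2%, against 20.2% and 8.86%. GGGCGG, bound by SP1, was in 37.7%, below the 63.0% of detected genes and near the 35.7% of all windows. Matches describe the letters in these windows and do not show that a factor was bound.

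The promoter of Ndufa11, an accessory complex I gene at 194, 196 and 196 TPM, is shown as an example with the NRF1 core, read on both strands, in capitals. It covers chr17:56717612-56717761 on the plus strand of GRCm38.p6.
Ndufa11: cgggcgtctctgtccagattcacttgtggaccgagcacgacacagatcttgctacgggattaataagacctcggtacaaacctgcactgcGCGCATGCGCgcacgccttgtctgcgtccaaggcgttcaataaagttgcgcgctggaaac
Genes of some of these factors, and of other regulators of mitochondrial biogenesis, were measured in the same libraries. Nrf1 stood at 78.5, 73 and 60.9 TPM. Ssbp1, a listed gene that is not among the factors searched for, stood at 85.7, 86.1 and 83.9 TPM. Tfam, which packages mitochondrial DNA and helps to start its transcription, was at 78.6, 79.8 and 72.5 TPM. The GABP genes Gabpa and Gabpb1 were at 22.4 ± 0.931 and 56.6 ± 1.23 and Yy1 at 13.4 ± 0.367 TPM. Ppargc1a, the gene of the coactivator PGC-1 alpha, had 2, 0 and 9 counts and stood under 1 TPM in all libraries. Its relatives Ppargc1b and Pprc1 were at 3.16 ± 0.694 and 10.2 ± 3.15 TPM. Of the 16 regulators listed, 15 were detected.

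Complex V consists of a catalytic F1 head, a c ring in the membrane and a stalk that joins them. Of its 18 entries, 17 were detected. The most abundant were Atp5e at 602, 613 and 549 TPM, Atp5h at 555, 574 and 561, Atp5c1 at 573, 545 and 537, Atp5j at 547, 570 and 500 and Atp5l at 494, 472 and 457. The catalytic beta subunit gene Atp5b was at 424, 421 and 356 TPM and the alpha subunit gene Atp5a1 at 291, 326 and 286. The delta subunit gene Atp5d was at 285 ± 5.71. The stalk and membrane subunit genes Atp5f1, Atp5j2, Atp5k and Atp5mpl ran from 246 TPM (Atp5mpl in library 2) to 440 TPM (Atp5f1 in library 1). Atp5s, which encodes a coupling factor, was low at 7.55, 9.58 and 10.4 TPM, from 48, 78 and 72 counts. A separate entry with the symbol Atp5o had 0 counts. It shared 40.3% of its 50-base stretches with the main Atp5o entry, which stood at 390, 374 and 343 TPM, and 49.5% with Donson, so its 0 is uncertain.

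The c ring genes gave the largest uncertainty of assignment. Atp5g3 stood at 409, 415 and 367 TPM and Atp5g1 at 273, 267 and 244, while Atp5g2 was listed at 29.8, 25.8 and 35.3. Gm10175, whose copy of the coding sequence is printed above, was listed at 459, 433 and 445 TPM, from 2406, 2733 and 2128 estimated counts, against 180, 190 and 196 for Atp5g2. The posterior SD of the Atp5g2 count, the deposited measure of how uncertain its reads' assignment was, was 71.6, 95.1 and 60.4 counts. It averaged 40.1% of the count, where 70 members had 1% or less. Atp5g2 minus Atp5g1 was -3.12 ± 0.30 on the log2(TPM + 0.1) scale and Atp5g2 minus Atp5g3 -3.72 ± 0.32, each with an exact permutation p of 0.25. With the copies' TPM added to each gene, an alternative chosen after seeing the data, the differences became 0.64 and 0.38. Which c ring gene was the most abundant therefore depends on where the shared reads are counted.

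Other members shared sequence with copies that also held counts, with a smaller uncertainty of assignment than Atp5g2. The posterior SD was 5.83% of the count in Ndufb4, 3.8% in Atp5l, 2.36% in Cox7c and 2.25% in Ndufa12, and exceeded 5% in 2 members, Atp5g2 and Ndufb4. Ndufb4 was listed at 151, 215 and 149 estimated counts, and Ndufb4c, identical over the coding sequence, at 535, 647 and 504. Atp5l had 1584, 1896 and 1526 counts, and its processed pseudogene Gm10221 had 1580, 1799 and 1293. Cox7c, at 423 ± 5.57 TPM, had Gm12338 beside it at 382 ± 26.3. Ndufa12, at 164 ± 9.44 TPM, had Gm15920 at 116 ± 5.20. The levels of these members are lower bounds if the copies' reads are theirs, which was not tested. Of the 86 entries, 48 shared no 50-base stretch of their coding transcripts with another gene and 14 shared over 20%.

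A separate deposited table of whole-number counts, on GENCODE M4, held fewer reads for these genes. There Atp5g2 had 4, 1 and 6 counts, Atp5g1 10, 9 and 11, Cox7c 6, 11 and 15 and Atp5l 9, 12 and 13, and Gm10175 and Gm10221 had 0 in all libraries. The median tested member kept 34.8% of its estimated count in that table and the median tested gene 40.7%. Among tested members these 4 alone kept under 5%, as did 6.31% of tested genes. Its treatment of reads with several matches is stated in none of the sources used here.

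**Figure D2:**
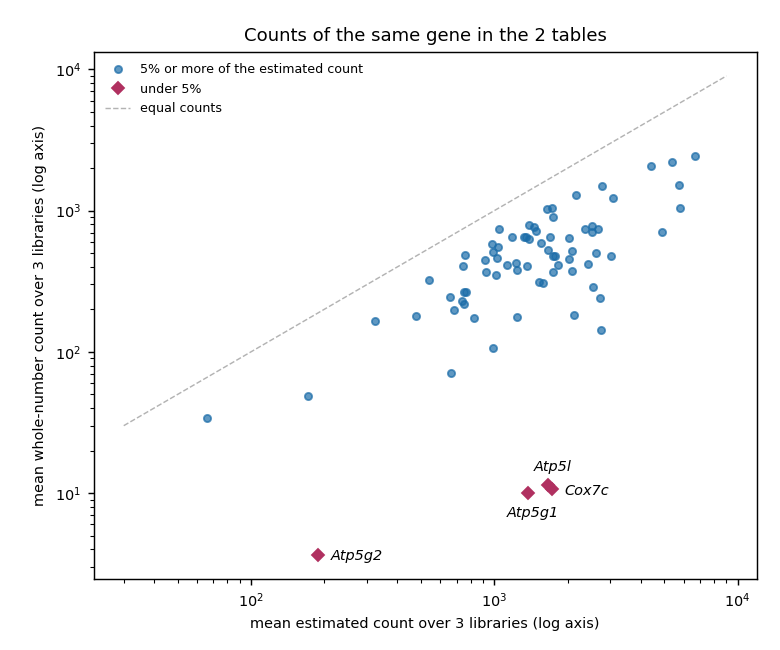
Mean counts of tested members in the estimated and in the whole-number table, both on log axes; the dashed line marks equal counts. Atp5g1, Cox7c, Atp5l and Atp5g2, in red, keep under 5% of their estimated counts in the whole-number table.

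A gene's level is not the level of its coding transcripts. Over the 79 detected members, the median share of TPM on transcripts annotated as protein coding was 96.5%, against 86.5% over detected protein-coding genes. The share was over 90% in 50 members. It was under 50% in 13 members, or 16.5%, near the 16.1% of detected protein-coding genes. The leading transcript of those 13 was a retained intron in 5, a processed transcript without a coding sequence in 5 and a target of nonsense-mediated decay in 3.

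Ndufa3, the highest complex I gene, had 4.82 ± 0.582% of its TPM on coding transcripts, or 29.1 of its 605 TPM. Ndufa3-204, annotated as a nonsense-mediated decay transcript of 343 bases, took 91.8 ± 0.81%. Ndufa10 had 5.62 ± 1.51%, Ndufb4 5.72 ± 1.86% and Ndufa5 5.78 ± 1.05%. In Ndufb4 a retained-intron transcript of 465 bases took 92.5%, and its coding transcript, the one identical in part to Ndufb4c, stood at 2.30 TPM. Cox7b had 11.1 ± 1.05% and Cox7a2 22.4 ± 3.22%. In complex V, Atp5j had 13.6 ± 0.442%, with the retained-intron transcript Atp5j-208 at 84.6%, Atp5f1 36.4 ± 1.9% and Atp5l 38 ± 7.68%. Ndufs4 had 13 ± 3.46%, Cyc1 30.4 ± 3.11%, Cox5b 39.8 ± 1.35% and Ndufc1 46 ± 4.52%. How well the reads could tell the transcripts of a gene apart was not tested.

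**Figure D3:**
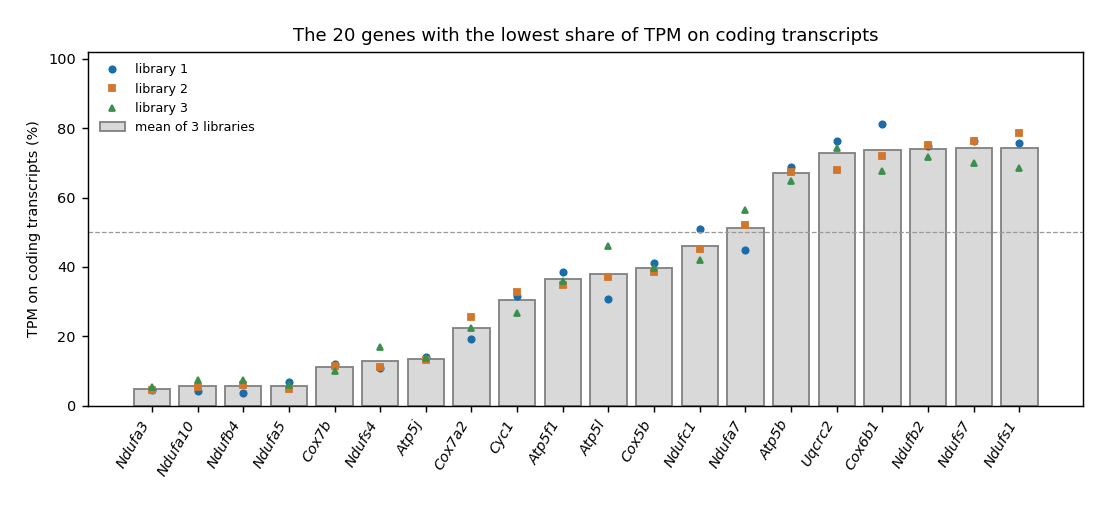
Share of a gene's TPM on coding transcripts, in percent, for the 20 detected members where it was lowest; bars are means of 3 libraries and symbols the libraries. The 13 genes at the left lie under 50% (dashed line).

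The libraries differed by little in size. The highest library exceeded the lowest by 1.11-fold in the median tested member, against 1.26-fold in the median tested gene and 1.14-fold in the median gene of 500 or more counts on average. In 34 of 77 tested members, or 44.2%, the ratio was under 1.1-fold. Atp5s alone exceeded 1.5-fold, at 1.6, and did not pass the test (adjusted p = 0.0727). Uqcrh was the flattest, with adjusted p = 0.993 at 2911, 3427 and 2725 counts.

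The differences between libraries exceeded counting noise in 37 of the 77 tested members (Poisson chi-square test on TMM-scaled counts with Benjamini-Hochberg adjustment over all tested genes, threshold 0.05). That is 48.1%, near the 45.7% of all 13970 tested genes. Among genes averaging at least 500 counts it was 36 of 72 members, or 50%, below the 62.9% of such genes. Complex V had 11 of 17 called, complex IV 7 of 12, complex III 5 of 9, complex II 3 of 4 and complex I 11 of 35. In the same order, the median of the mean count was 2367, 2025, 1523, 2449 and 1048. The test calls smaller differences at higher counts, so these shares are not on an equal footing. The whole-number table called 2 of 76 members, Atp5c1 and Cox4i1, where it called 21.6% of its tested genes. Without library 3 the estimated counts called 8 of 77 members, where they called 21.2% of all tested genes. Without library 1 they called 37, against 34.1%, and without library 2 32, against 30.6%. No member was called under every alternative, a count that the 2 called in the whole-number table limit. The share of all tested genes called under every alternative is not given here.

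In the estimated counts, the members were low in library 3. Of the 77, 60 had their lowest scaled level there, or 77.9%, where 37.3% of all tested genes did. Among genes averaging at least 500 counts it was 59 of 72, or 81.9%, where 52% did. Library 1 was lowest in 15 members, against 31.7% of tested genes, and library 2 in 2, against 31%. These counts depend on the scaling: by total counts in place of TMM, 41 members were lowest in library 3, 23 in library 1 and 13 in library 2, against 28.5%, 32.8% and 38.7% of tested genes. Of the called members 34 were lowest in library 3, or 44.2% of the 77 tested, where 19.5% of tested genes were called and lowest there. Complex IV had 11 of 12 and complex II 4 of 4 lowest in library 3, complex V 13 of 17, complex III 7 of 9 and complex I 25 of 35. The median log2 ratio of library 3 over library 1 was -0.09 in members and 0.0045 in all tested genes, and of library 3 over library 2 -0.11 and -0.0079.

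The whole-number table gave another order. There 11 of 76 members were lowest in library 3, against 36.9% of its tested genes, and 52 in library 2, against 30.8%. The median log2 ratio of library 3 over library 1 was 0.02 there. The low place of library 3 was seen in the estimated counts alone, in fewer members by total counts than with TMM.

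The largest chi-square among members was that of Atp5b, 82.7 per degree of freedom, where counting noise gives a mean of 1. It had 5518, 6490 and 4091 counts in libraries 1, 2 and 3, low in library 3 by 1.26-fold (adjusted p = 6.9e-35), and was not called without library 3 (adjusted p = 0.946) or in the whole-number table (adjusted p = 0.0588). Atp5a1 followed at 39.5 with 6279, 8180 and 5634 counts, high in library 2 by 1.16-fold over library 3 (adjusted p = 1.58e-16). It was not called without library 2 (adjusted p = 0.0823) or in the whole-number table (adjusted p = 0.9996). Cox6a1 at 25.6 had 2470, 2921 and 1916 counts, low in library 3, and was not called without it (adjusted p = 0.873) or in the whole-number table (adjusted p = 0.419). Atp5j at 20.8 had 2547, 3200 and 2127 counts, and was called under every alternative except the whole-number table, where its adjusted p was 0.493.

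Cox5b (19.9), Atp5g3 (18.7), Ndufb9 (17.3), Atp5o (17.3), Sdhb (16.7) and Uqcrb (15.7) completed the 10 members with the largest values of chi-square per degree of freedom. All were lowest in library 3, by 1.15-fold to 1.27-fold, and none of these 6 was called without library 3 or in the whole-number table. The called members with another lowest library were Ndufs1, at 1453, 1867 and 1601 counts, Uqcrc2, at 2502, 3327 and 2459, and Cox7a2l, at 2533, 3077 and 2606, all lowest in library 1 relative to library size.

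**Figure D4:**
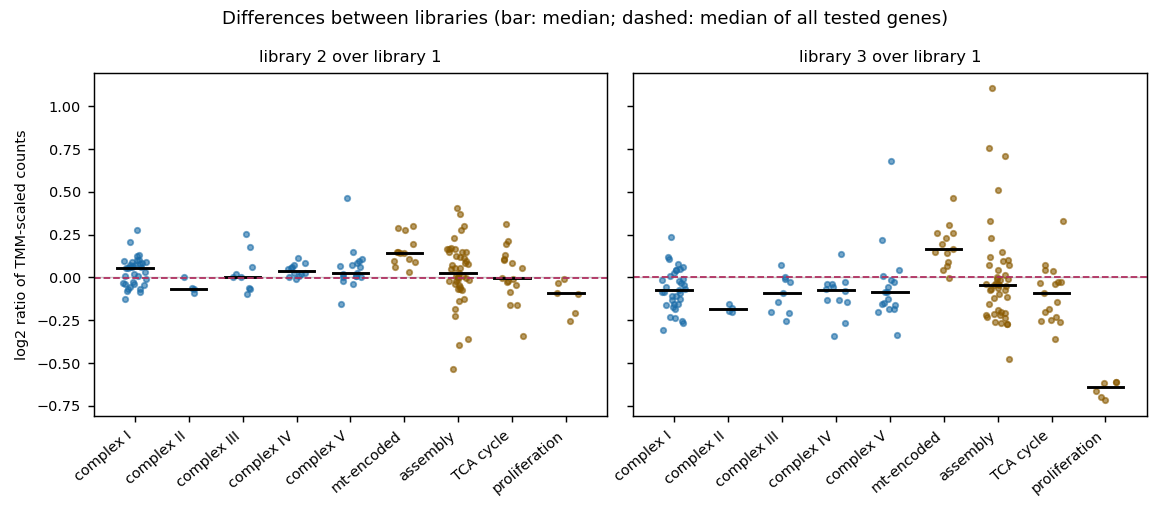
Log2 ratio of scaled estimated counts for library 2 over 1 (left) and library 3 over 1 (right); each point is a gene, bars are group medians and the dashed line is the median of all tested genes. Members of complexes I to V have medians below 0 at right, mitochondrially encoded subunits have a median above it and proliferation genes lie lowest; in the whole-number table the members' median was 0.02.

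The subunits encoded by mitochondrial DNA had another order of libraries. All 13 were detected, led by mt-Co3 at 5153, 6081 and 5405 TPM and mt-Atp6 at 4332, 4548 and 4623, and 12 were lowest in library 1. Of the 13, 12 were called, 11 of them lowest in library 1. Of all tested genes 45.7% were called and 31.7% were lowest in library 1. Among genes averaging at least 500 counts, as all 13 do, 62.9% were called. The share of tested genes both called and lowest in library 1 is not given here. Their median log2 ratio of library 3 over library 1 was 0.17, where that of the nuclear members was -0.09. Their summed level was 26862, 29095 and 29799 TPM, and that of the nuclear members 22086, 21913 and 21123. Reads of mitochondrial genes can be shared with copies of mitochondrial sequence in the nucleus. In the whole-number table, all 8 of the genes tested there were lowest in library 2.

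Other genes of the pathway were read as lists. The TCA cycle and pyruvate dehydrogenase genes were lowest in library 3 in 12 of 17, with 10 called, 6 of them lowest in library 3. The whole-number table had 10 of 17 lowest there. Of all tested genes 45.7% were called, 37.3% were lowest in library 3 and 19.5% were both, and 36.9% were lowest in library 3 in the whole-number table. Mdh2 stood at 549, 512 and 468 TPM and Idh3a at 205, 194 and 175. Of the mobile carriers and exchangers, 10 of 14 were lowest in library 3, with 9 called, 8 of them lowest there, and 5 of 13 in the whole-number table. This list also holds the complex I subunit Ndufab1, which was called and lowest in library 3. Slc25a5, the main ATP and ADP exchanger here, stood at 1233, 1206 and 1124 TPM and Etfb, an electron transfer flavoprotein, at 212, 231 and 193. Assembly factors had 45 of 47 members detected and 13 of 45 called, of which 6 were lowest in library 1 and 5 in library 3. The copper chaperone gene Cox17 led them at 294, 314 and 267 TPM, followed by Cox20 at 193, 200 and 182. Of the regulators of mitochondrial biogenesis 3 of 15 were called. The called shares of the assembly factors and of these regulators were below the 45.7% of all tested genes.

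Proliferation genes were also lowest in library 3. All 6 were called, highest in library 1 by 1.53-fold to 1.64-fold over library 3, and 5 of 6 were lowest in library 3 in the whole-number table too. Their summed level was 2669, 2448 and 1763 TPM. The summed erythroid and plasma cell markers were highest in library 3. The part of these in the low place of the members there was not tested.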

How the data were processed

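Polyadenylated RNA of 1 Treg sample was measured in 3 libraries. Estimated counts and TPM per gene were deposited by the authors in the RSEM column layout on mm10 with GENCODE M21, per the file headers. From the same deposited tables come effective lengths and the posterior SD, a signal on the scale of reads. The deposited transcript table gives the percent of a gene's TPM on each transcript, per the file headers. A further deposited table holds whole-number counts for GENCODE M4 genes. The aligner and strand setting are stated in none of the sources used here.

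Members and lists were chosen with earlier results of these data known. Estimated counts were rounded. Library sizes were scaled by TMM (edgeR 4.0.16, R 4.3.3; factors 0.994, 0.976 and 1.03). With 1 group edgeR's quasi-likelihood test has no contrast, so each of 13970 genes averaging at least 10 counts was tested by a Poisson chi-square test of homogeneity over 3 libraries, Benjamini-Hochberg adjusted, threshold 0.05. The test takes reads as independent molecules. DESeq2 1.42.0 size factors were an alternative. Shares of 50-base stretches came from GENCODE M21 transcripts, and copies below 3% were left out. Promoters came from RefSeq tables of GRCm38.p6. Proteins were not analysed here. Some items named by the rule below are not reported here.

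Named were, in each complex, the 5 highest and 2 lowest members, all isoform pairs, the 10 largest chi-square values among called members, members under 1 TPM or under 50% coding, core subunits, and 2 leading genes of each list. Other regulators, copies and promoter examples were chosen after their values were seen. Totals were 11829501, 14136139 and 10667765 counts, and 3 counts were 0.254, 0.212 and 0.281 CPM, which with all intervals covers counting error only.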

Additional observations from a re-analysis of the deposited data

How the results depend on the processing

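DESeq2 size factors and added posterior SDs kept the number of called members within 1.5 times of 37. With total counts the members lowest in libraries 1 and 2 numbered 23 and 13, those lowest in library 3 41, and the median log2 ratio of library 2 over 1 became -0.00097. The whole-number table called 2 members, placed 52 lowest in library 2 and 11 in library 3, and gave median log2 ratios of -0.0938, 0.0178 and 0.0898 for libraries 2 over 1, 3 over 1 and 3 over 2. With all genes of any count, 5 members were lowest in library 2. Leaving out a library in turn gave 8 to 37 called members: 37 without library 1, 32 without library 2 and 8 without library 3, where 34.1%, 30.6% and 21.2% of all tested genes were called. The cause of these changes was not tested. Levels of complexes I, III, IV and V were 89.8, 126, 108 and 182 in CPM without length, over all entries, including the complex IV genes near the floor. By posterior mean TPM, complexes I to V stood at 158, 171, 226, 265 and 310. With detected members only, complexes IV and V stood at 361 and 369 TPM. On coding transcripts alone, complexes I, II, IV and V stood at 154, 169, 107 and 269 TPM over all entries, including the complex IV genes near the floor. Cox7a2 minus Cox7a2l was -1.02 in CPM and -2.01 on coding transcripts. With copies added, Atp5g2 minus Atp5g1 was 0.64 and Atp5g2 minus Atp5g3 0.38. The settings with copies, coding transcripts and the naming of Ndufa4 were chosen after seeing the data. No paired analysis between groups was possible because there was 1 group. A count of 0 or 1 allows no finer statement on the low isoforms than the limits given.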
